A study of Mus musculus with 2 samples.

Results

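The genes described here encode 44 proteins of stress granules and processing bodies (P-bodies). They were chosen by gene symbol from a list, and all 44 were found among the 32285 genes of the count tables. The rule itself used no measured values, but the list and the roles were set with earlier results of these data known. For the text they were grouped into 6 roles: 13 granule assembly factors, 3 proteins of the fragile X family, 9 helicases and translation initiation factors, 6 mRNA decay factors, 9 RNA-binding proteins that shuttle between nucleus and cytoplasm, and 4 proteins that package or localise mRNA.

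Stress granules are clusters of messenger RNA and protein without a membrane that form when translation initiation stalls, typically after phosphorylation of the initiation factor eIF2. G3bp1 and G3bp2 drive their assembly, Caprin1 and Usp10 bind G3bp in competition, and prion-like RNA-binding proteins such as Tia1 and Tardbp (TDP-43) gather in them. P-bodies are related clusters, present without stress, that hold the decapping and 5′ to 3′ decay enzymes. In the brain, mutations of several of these proteins, among them TDP-43, Tia1 and Hnrnpa2b1, are known from neurodegenerative disease. Granules form from protein and RNA already in the cell, so a transcript level is a measure of the gene and not of granule number.

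The study compared cortical tissue of Fam69c wild-type and Fam69c knockout mice by droplet single-cell RNA sequencing, which counts the 3′ ends of captured transcripts as unique molecular identifiers (UMIs). The mice were males of 4 months, and cortices were pooled by genotype, dissociated, stained with the dye 7-AAD and sorted before 1 library was made from each pool. The sources used here give no strain, no allele and no deleted part of the gene, and they name no treatment. Because there was 1 library per genotype, genotype and pool cannot be told apart and no test was made. Beside a ratio, a range in parentheses is its exact 95% interval, which covers counting error and not the spread between animals.

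Of 7150 wild-type barcodes (57166105 UMIs) and 9182 knockout barcodes (75473717 UMIs), 5152 and 7480 passed the cell filter. The 2 libraries shared 17 barcodes. Cells were assigned to classes by marker genes. Astrocyte-like cells numbered 2316 in wild type and 4405 in knockout. The oligodendrocyte-like class had 712 and 872 cells, the microglia-like class 257 and 310, the neuroblast-like class 227 and 440 and the endothelial-like class 156 and 266. Although the tissue was cortex, 1 cell in each library passed the neuron gate, so neurons are not described. The median UMIs per astrocyte-like cell were 11514.5 in wild type and 8993 in knockout, and the other 4 classes were likewise shallower in the knockout library. The transcript of the targeted gene, listed as Dipk1c, stood at 59.6 CPM (UMIs of the gene scaled to a fixed class total) in wild-type and 33.4 in knockout astrocyte-like cells. A 3′ tag outside a deleted part would not check the label.

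Among cell classes the granule genes were highest in neuroblast-like cells, which carry markers of young migrating neurons. The leading genes of this class also held cell cycle genes. These were Top2a in wild type (29.1-fold over other cells) and Pclaf and Hist1h2ae in knockout (30.1-fold and 29.7-fold). Cycling cells were not separated from this class. The 44 genes together made up 13089 CPM there in wild type and 12505 CPM in knockout, against 5698 and 4845 CPM (astrocyte-like), 5766 and 5268 (oligodendrocyte-like), 7500 and 6892 (microglia-like) and 7081 and 6461 (endothelial-like). Of the 44 genes, 25 had their highest level of 5 classes in neuroblast-like cells in both libraries, where 24% of 13546 measured genes did. By the same rule microglia-like cells were highest for 5 genes (background 15.8%), endothelial-like cells for 4 (12.6%), astrocyte-like cells for 1 (19.6%) and oligodendrocyte-like cells for 1 (12%). Levels are shares of a class total: nuclear-retained RNAs such as Malat1 took 15.1% of the UMIs of wild-type astrocyte-like cells and 3.14% of those of neuroblast-like cells, and their part in this order was not tested.

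Compared with astrocyte-like, oligodendrocyte-like and microglia-like cells, 7 genes were at least 2-fold higher in neuroblast-like cells than in each of the 3, in both libraries. The background for this rule is 9.61% of 13398 genes. None of the 44 met it in astrocyte-like (0, background 11.5%), oligodendrocyte-like (0, 6.31%) or microglia-like cells (0, 7.45%). Hnrnpa1, a splicing factor that shuttles to the cytoplasm, had the widest range of the list. It stood at 1312 CPM in wild-type and 1387 CPM in knockout neuroblast-like cells, against 66.5 and 73.8 (astrocyte-like), 130 and 139 (oligodendrocyte-like) and 154 and 178 (microglia-like). Ybx1, which coats mRNA and holds it untranslated, stood at 1274 and 1430 CPM in neuroblast-like cells and at 157 and 186 in astrocyte-like cells. Endothelial-like cells, which are outside this rule, were nearest for Ybx1, at 723 and 795 CPM, and had 114 and 115 CPM of Hnrnpa1. Eif4a1, the RNA helicase of the cap-binding complex, had 796 and 944 CPM in neuroblast-like cells and 159 and 197 in astrocyte-like cells. G3bp1 had 257 and 301 CPM in neuroblast-like, 65.5 and 74.2 in astrocyte-like, 74.5 and 83.1 in oligodendrocyte-like, 115 and 139 in microglia-like cells. The remaining 3 were Caprin1, Ubap2 and Hnrnpk.

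Among astrocyte-like, oligodendrocyte-like and microglia-like cells alone, few of the genes were tied to a class. Tia1, an RNA-binding protein that stalls translation and nucleates granules, was at least 2-fold higher in astrocyte-like cells than in both others (16.5% of 13078 genes were). It stood at 287 CPM in wild type and 222 in knockout there, at 107 and 94.3 among oligodendrocyte-like cells, and at 137 and 107 among microglia-like cells. Ybx3, a relative of Ybx1, met the same rule in oligodendrocyte-like cells (background 8.5%), with 197 and 187 CPM against 36.9 and 40.8 in astrocyte-like and 41.8 and 37.1 in microglia-like cells. Ddx3x, Pabpc1 and Dcp2 met it in microglia-like cells (background 9.32%). Ddx3x, an RNA helicase, had 356 and 298 CPM there against 107 and 81.2 in astrocyte-like cells. Pabpc1, which binds the poly(A) tail, had 346 and 347 CPM against 129 and 117 in oligodendrocyte-like cells, and the decapping enzyme Dcp2 had 38.5 and 32.3 against 13.0 and 10.5. Outside these 3 classes, endothelial-like cells had 188 and 182 CPM of Ybx3. Neuroblast-like cells stood above the named class for Tia1 (474 and 383 CPM), Pabpc1 (394 and 361) and Dcp2 (45.5 and 35.2), but not for Ddx3x (191 and 143). The paralog of G3bp1, G3bp2, was not tied to a class: it ranged from 82.2 to 207 CPM over the 5 classes in the wild-type library and from 74.0 to 187 in the knockout library.

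**Figure D1:**
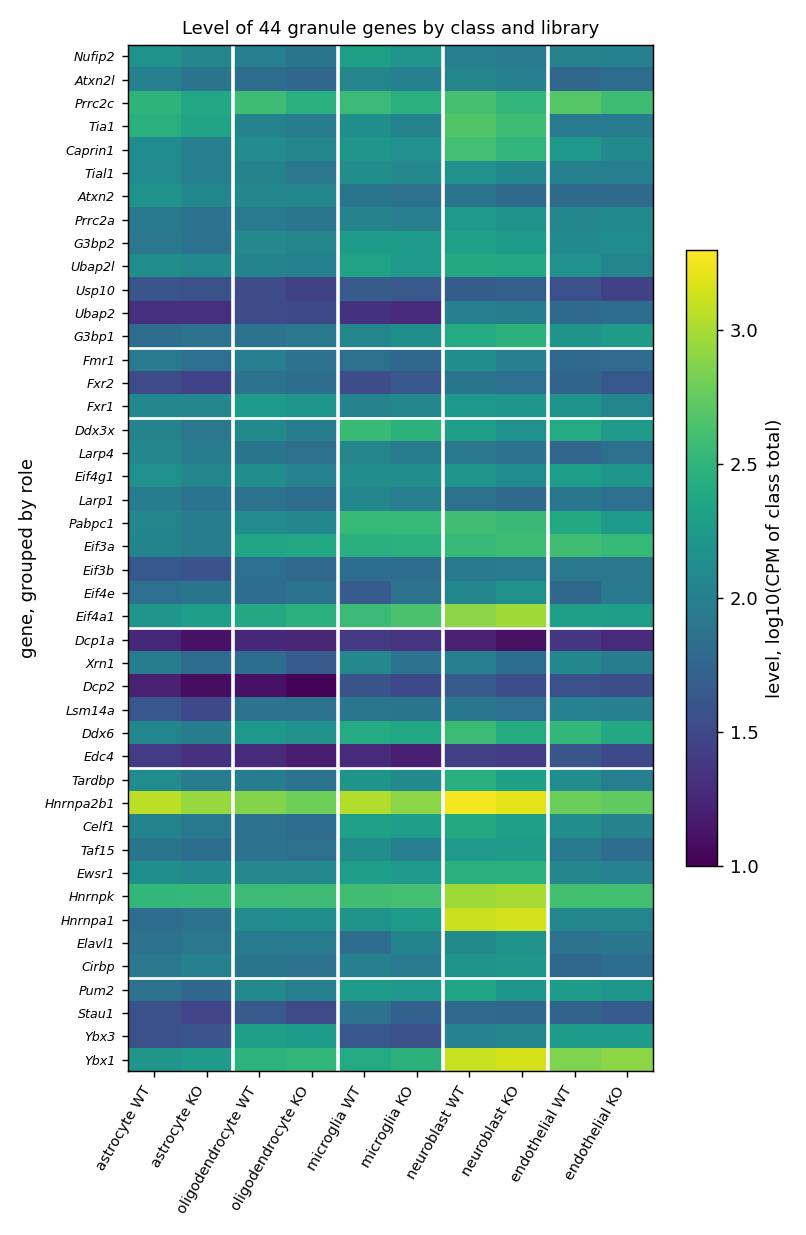
Level of each of the 44 genes (rows, grouped by role with white lines) in 5 cell classes of the wild-type (WT) and knockout (KO) library (columns), coloured by log10 of CPM of the class total. The columns of neuroblast-like cells are brightest for Hnrnpa1, Ybx1 and Eif4a1, and WT and KO columns of a class resemble each other more than columns of different classes. Because 3′ UMIs are not scaled by transcript length, rows should be read along a gene and not between genes.

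The genes were then compared between the libraries within each class, as the log2 ratio of knockout over wild type. In astrocyte-like cells 35 of 44 had a ratio below 0 (59.0% of all genes), 20 were lower by 0.3 or more and 1 was higher by as much, with a median of -0.27. Of the 12456 genes measured there with at least 100 UMIs, 27.8% were lower by 0.3 or more and 16.1% higher, with a median of -0.09. In oligodendrocyte-like cells 35 of 44 genes were below 0 (56.8% of all genes), 11 were lower and 0 higher (19.5% and 10.5% of all genes), with a median of -0.15 against -0.05. In microglia-like cells 41 of the 44 passed the minimum, missing Ubap2, Edc4 and Dcp1a, and 29 were below 0 (51.5% of all genes). There 8 were lower and 2 higher (21.9% and 19.1% of all genes), with a median of -0.15 against -0.01. In neuroblast-like cells 30 of 44 genes were below 0 (59.8% of all genes), 12 were lower and 1 higher (27.5% and 11.3% of all genes), with a median of -0.15 against -0.09. In endothelial-like cells 40 genes passed the minimum, 12 were lower and 2 higher (20.4% and 19.5% of all genes), with a median of -0.06 against 0.0046.

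The share of lower genes in astrocyte-like cells depended on the scaling. With trimmed-mean (TMM) factors, which raise every ratio of this class by 0.09, 9 of the 44 genes (20.5%) were lower, against 19.6% of all genes. Higher by 0.3 or more were 3 of the 44, against 2882 of 12456 over all genes. With these factors the share of lower genes was thus near the background, and 75.0% of those past 0.3 were lower in place of 95.2%. Over all genes the same scaling moved that share from 63.4% to 45.9%. Fxr1 and Ubap2, whose ratios were -0.02 and -0.04, changed sign with it. With TMM factors 33 of the 44 genes were still below 0, against 6264 of 12456 over all genes. The median of the 44 was then -0.19, against -0.0037 over all genes.

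Summed over the 44 genes, the UMIs of astrocyte-like cells gave a log2 ratio of -0.23 (-0.24 to -0.22), those of oligodendrocyte-like cells -0.13 (-0.15 to -0.11) and those of microglia-like cells -0.12 (-0.16 to -0.08). The summed share was lower in the knockout library in 7 of 7 classes that held 50 or more cells per library, T cells and B cells included. A sum weighs abundant genes most. Hnrnpa2b1 alone held 1185 of the 5698 CPM in wild-type and 873 of the 4845 CPM in knockout astrocyte-like cells. In microglia-like cells it held 1078 of 7500 and 794 of 6892 CPM. No value for other genes of like length stands beside these sums. Hemoglobin UMIs, from blood carried over, also differed between the libraries: 0.394% of astrocyte-like UMIs in wild type and 0.155% in knockout. The hemoglobin share was 0.521% and 0.303% in oligodendrocyte-like cells, 0.416% and 0.238% in microglia-like cells and 1.59% and 0.345% in endothelial-like cells. All 8 mural cell markers were detected in endothelial-like cells of both libraries, with a summed share of 0.201% in wild type and 0.0496% in knockout. Fibroblast markers went the other way in that class, with 0.0176% in wild type and 0.0936% in knockout. Ribosomal protein transcripts, which are short, took 2.08% of astrocyte-like UMIs in wild type and 2.61% in knockout. The part of these differences in the ratios was not tested.

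**Figure D2:**
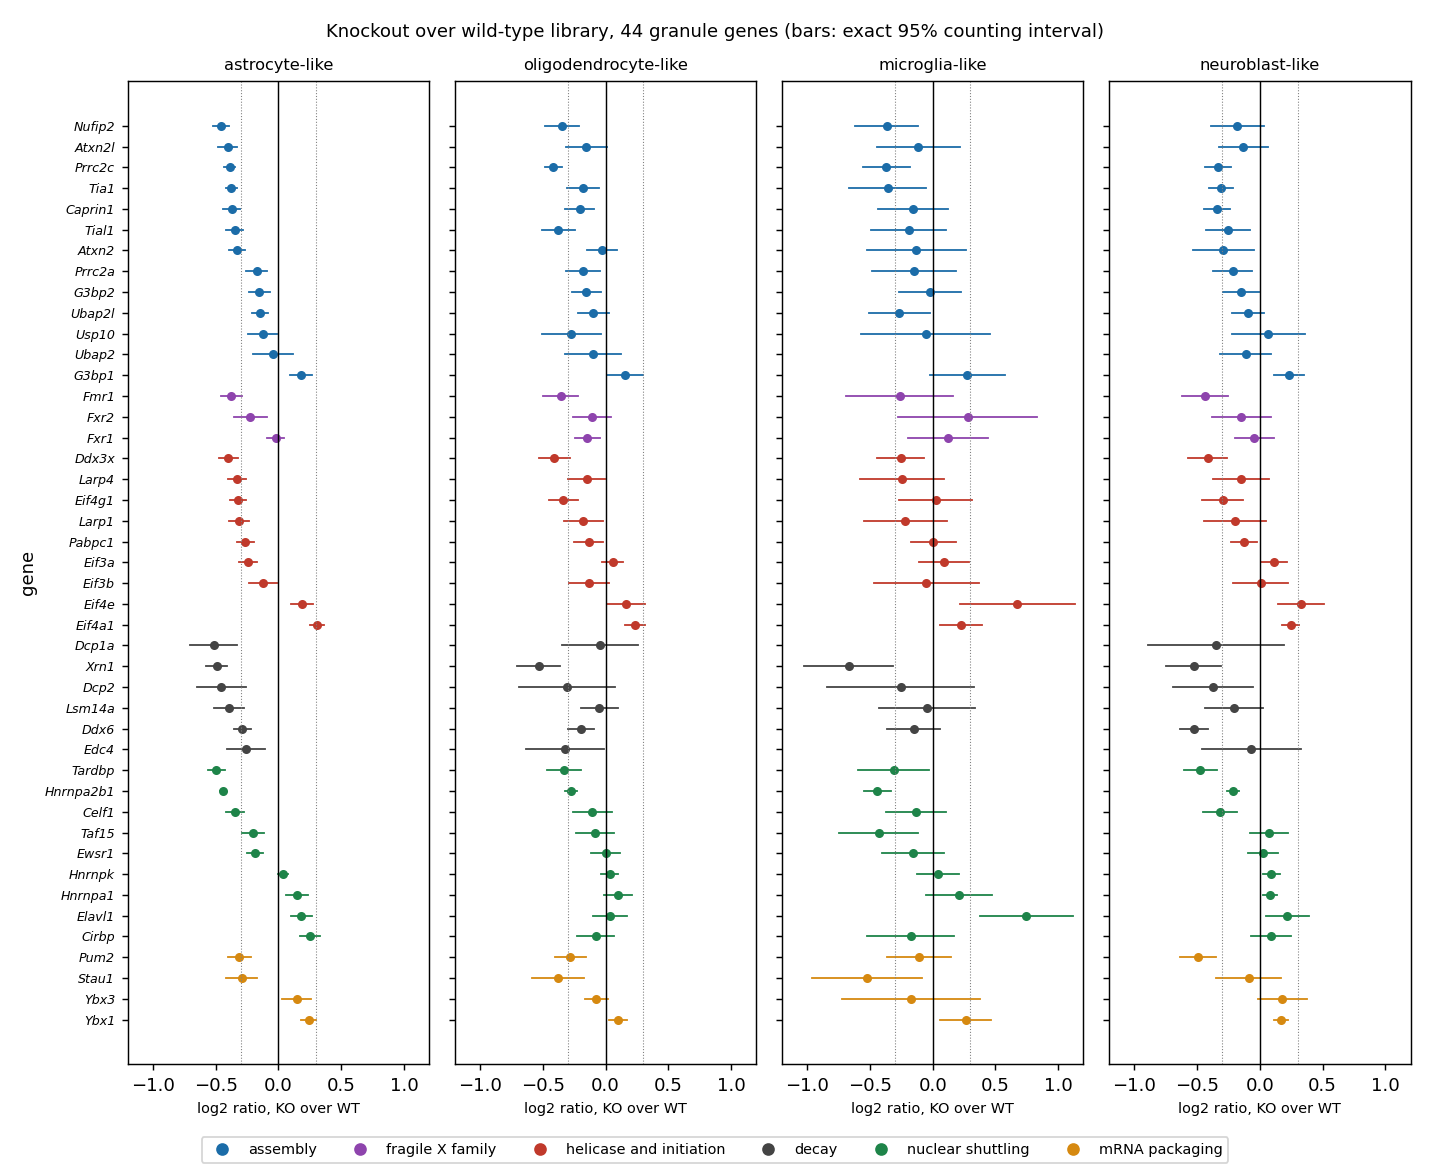
Log2 ratio of knockout over wild-type CPM (x axis) of the 44 genes (y axis, ordered by role and by the astrocyte-like ratio) in 4 classes. Points are coloured by role, horizontal bars are exact 95% counting intervals, and dotted lines mark -0.3 and 0.3. Most points lie left of 0, bars are widest in microglia-like cells, and Eif4e and Elavl1 stand furthest right there.

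Of the 13 assembly factors, 12 had a ratio below 0 in astrocyte-like cells and 7 were lower by 0.3 or more. Of all genes with transcripts of 4000 bases or more, 88.2% were below 0 in this class and 52.3% lower by as much. Only Usp10 of the 13 is shorter than that. Nufip2, a partner of the fragile X protein, stood at 153 CPM in wild type and 111 in knockout (log2 ratio -0.46, -0.52 to -0.40), and Prrc2c, a large disordered granule protein, at 310 and 237 (-0.39, -0.43 to -0.34). The RNA-binding proteins Tia1 (-0.37) and Tial1 (-0.35, 128 against 100 CPM), the G3bp partner Caprin1 (-0.37, 131 against 101 CPM) and the ataxins Atxn2l (-0.41, 102 against 77.0 CPM) and Atxn2 (-0.33, 148 against 118 CPM) made up the rest. G3bp1 went the other way in all 5 classes, and its ratio was 0.18 (0.09 to 0.27) in astrocyte-like, 0.16 (0.01 to 0.30) in oligodendrocyte-like, 0.27 (-0.03 to 0.58) in microglia-like, 0.23 (0.11 to 0.35) among neuroblast-like and 0.29 (-0.03 to 0.60) among endothelial-like cells. The intervals of the microglia-like and endothelial-like ratios include 0. Its paralog G3bp2 was at -0.15 (-0.23 to -0.07) in astrocyte-like and -0.02 (-0.27 to 0.22) in microglia-like cells. The deubiquitinase Usp10 was at -0.13 (40.8 against 37.4 CPM).

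In oligodendrocyte-like cells 3 assembly factors were lower by 0.3 or more: Prrc2c (385 against 289 CPM, -0.42), Tial1 (107 against 82.3 CPM, -0.38) and Nufip2 (-0.35). In microglia-like cells the 3 were Prrc2c (369 against 285 CPM, -0.37), Nufip2 (203 against 158 CPM, -0.37) and Tia1 (-0.36). In neuroblast-like cells they were Caprin1 (413 against 326 CPM, -0.34), Prrc2c (422 against 335 CPM, -0.33) and Tia1 (474 against 383 CPM, -0.31). Of all genes with transcripts of 4000 bases or more, 35.4%, 38.2% and 50.2% were lower by as much in these classes, in the same order. In endothelial-like cells Caprin1 (-0.42), Prrc2c (-0.35) and Ubap2l (-0.34, -0.71 to 0.02) were lower by as much, where 35.7% of such long genes were.

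The fragile X proteins bind mRNA on stalled ribosomes. Fmr1, the gene of fragile X syndrome, was lower in the knockout library in astrocyte-like cells (89.8 against 69.2 CPM, -0.38, -0.46 to -0.29), in oligodendrocyte-like cells (95.4 against 74.5 CPM, -0.36) and in neuroblast-like cells (136 against 100.4 CPM, -0.44). In microglia-like cells, with 107 and 86 UMIs, its ratio was -0.26 with an interval from -0.69 to 0.16. The paralogs stayed within 0.3 of 0 in these 4 classes: Fxr1 was at -0.02 and Fxr2 at -0.23 in astrocyte-like cells, 117 against 116 and 34.0 against 29.1 CPM. In endothelial-like cells the order was the other way, with Fxr1 at -0.39 (-0.75 to -0.03), Fxr2 at -0.38 (-0.99 to 0.22) and Fmr1 at 0.06 (-0.46 to 0.59), from 42 to 157 UMIs per library.

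Helicases and initiation factors went in both directions. In astrocyte-like cells Ddx3x was at -0.40 (-0.47 to -0.32), the scaffold Eif4g1 at -0.33 (143 against 114 CPM) and the mRNA-binding La-related proteins Larp4 and Larp1 at -0.33 (117 against 93.1 CPM) and -0.31 (94.2 against 75.8 CPM). Pabpc1 was at -0.26. Eif4a1 was the 1 gene of the 44 higher by 0.3 or more in this class (159 against 197 CPM, 0.30, 0.25 to 0.36), and its ratio was 0.24 in oligodendrocyte-like, 0.23 in microglia-like, 0.25 in neuroblast-like and -0.04 (-0.33 to 0.25) in endothelial-like cells. Its transcript is short, at 1774 bases. All genes of 1700 to 1921 bases had a median ratio of 0.15 in astrocyte-like cells. Eif4e, which binds the mRNA cap, was at 0.19 (69.4 against 79.1 CPM) in astrocyte-like cells and at 0.67 (45.8 against 72.9 CPM, 0.22 to 1.13) in microglia-like cells. The latter rests on 69 and 106 UMIs. In neuroblast-like cells Eif4e was at 0.33 (113 against 142 CPM) and Ddx3x at -0.42 (191 against 143 CPM), and in oligodendrocyte-like cells Ddx3x was at -0.41 (124 against 93.6 CPM) and Eif4g1 at -0.34 (133 against 106 CPM).

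All 6 decay factors had ratios below 0 in astrocyte-like and in oligodendrocyte-like cells, where 88.2% and 80.5% of all genes with transcripts of 4000 bases or more were below 0. Only Lsm14a of the 6 is shorter than that. Xrn1, the 5′ to 3′ exonuclease of P-bodies, was lower by 0.3 or more in each of 4 classes. It stood at 91.5 CPM in wild type and 65.1 in knockout in astrocyte-like (-0.49, -0.57 to -0.41), at 67.3 and 46.6 in oligodendrocyte-like (-0.53), at 120 and 75.7 in microglia-like (-0.67, -1.02 to -0.32) and at 97.5 and 67.7 in neuroblast-like cells (-0.53). In endothelial-like cells Xrn1 was also past 0.3, at -0.34, but with an interval from -0.75 to 0.06. In astrocyte-like cells the decapping activator Dcp1a was at -0.52 (18.5 against 12.9 CPM, -0.70 to -0.33), Dcp2 at -0.45 (-0.65 to -0.26) and Lsm14a, which links repressed mRNA to P-bodies, at -0.39 (42.5 against 32.4 CPM). Dcp1a rests on 464 and 499 UMIs and Dcp2 on 412 and 463. In neuroblast-like cells Ddx6, the helicase on which P-body assembly depends, was at -0.52 (372 against 259 CPM, -0.63 to -0.41), against -0.29 (114 against 93.2 CPM) in astrocyte-like and -0.15 (262 against 236 CPM) in microglia-like cells. Dcp2 (-0.37) and Dcp1a (-0.35) were also past 0.3 there, the latter from 55 and 66 UMIs with an interval from -0.89 to 0.19. In oligodendrocyte-like cells Edc4, the scaffold of the decapping complex, was at -0.32 (19.1 against 15.3 CPM) and Dcp2 at -0.31 with an interval from -0.69 to 0.07.

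Among the 9 shuttling proteins, Hnrnpa2b1, which sorts and transports mRNA, was lower than in wild type in 5 classes. It stood at 1185 CPM in wild type and 873 in knockout in astrocyte-like (-0.44, -0.46 to -0.42), 746 and 617 in oligodendrocyte-like (-0.27), 1078 and 794 in microglia-like (-0.44, -0.55 to -0.33), 1865 and 1610 among neuroblast-like (-0.21) and 612 and 545 among endothelial-like cells (-0.17, -0.33 to 0.0020). Tardbp was at 132 and 93.9 CPM in astrocyte-like (-0.49, -0.56 to -0.43), 95.2 and 75.7 in oligodendrocyte-like (-0.33), 155 and 125 in microglia-like (-0.31, -0.60 to -0.03) and 278 and 201 in neuroblast-like cells (-0.47). In endothelial-like cells Tardbp was at -0.45 (-0.84 to -0.07). The counting interval of both genes lay below 0 in these classes, apart from Hnrnpa2b1 in endothelial-like cells. Celf1, a regulator of splicing and decay, was lower by 0.3 or more in astrocyte-like (-0.35) and neuroblast-like cells (247 against 198 CPM, -0.32). Elavl1 (HuR), which stabilises mRNAs with AU-rich elements, was at 0.18 in astrocyte-like (72.6 against 82.5 CPM) and at 0.74 in microglia-like cells (65.7 against 110 CPM, 0.37 to 1.12, from 99 and 160 UMIs). The cold-inducible Cirbp was at 0.25 in astrocyte-like cells (83.8 against 99.8 CPM), and the RNA-binding protein Taf15 at -0.43 in microglia-like cells (-0.75 to -0.11).

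Of the 4 packaging proteins, Ybx1 was above 0 in these 4 classes, at 0.24 in astrocyte-like, 0.10 in oligodendrocyte-like, 0.26 in microglia-like and 0.17 in neuroblast-like cells. Pum2, a repressor that binds the 3′ end of its targets, was lower by 0.3 or more in astrocyte-like (72.2 against 58.1 CPM, -0.31) and neuroblast-like cells (226 against 161 CPM, -0.49). Stau1, which binds double-stranded RNA and localises mRNA, was lower by as much in oligodendrocyte-like (43.5 against 33.5 CPM, -0.38) and microglia-like cells (75.0 against 52.3 CPM, -0.52, -0.96 to -0.09).

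In 3 classes together (astrocyte-like, oligodendrocyte-like and microglia-like), 41 of the genes could be followed. Of these 26 (63.4%) were below 0 in all 3, where 35.4% of 4391 genes were. Lower by 0.3 or more in all 3 were 4 genes (9.76%), Tardbp, Nufip2, Prrc2c and Xrn1, where 6.97% of all genes were, so this count lies near the background. Above 0 in all 3 were 7 genes (17.1%), G3bp1, Eif4a1, Eif4e, Hnrnpa1, Hnrnpk, Ybx1 and Elavl1, where 30.3% of all genes were.

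Transcript length moved with these ratios. Over all genes of astrocyte-like cells the ratio and the length of the longest annotated transcript had a Spearman correlation of -0.59 across genes, given as a description because genes share a library and its depth. The corresponding values were -0.51 in oligodendrocyte-like, -0.53 in microglia-like, -0.59 in neuroblast-like and -0.53 in endothelial-like cells. Among the granule genes alone the correlation was -0.48, -0.42, -0.22, -0.57 and -0.14 in the same order, so it was weak in microglia-like and endothelial-like cells. The 44 genes are long: their median longest transcript is 4461.5 bases, against 3088 for all genes measured in astrocyte-like cells. Of the 28 with transcripts of 4000 bases or more, 25 were below 0 in astrocyte-like cells and 18 lower by 0.3 or more, with a median of -0.33. The 4266 genes of that length had a median of -0.31 and 52.3% were lower by as much. Of the 16 shorter genes, 2 were lower by 0.3 or more, Hnrnpa2b1 and Lsm14a, where 15.1% of 8183 shorter genes were, and their median was -0.12 against 0.06 for all shorter genes. In oligodendrocyte-like cells the longer genes of the list had a median of -0.18 against -0.22 for all longer genes, and in microglia-like cells -0.16 against -0.22. The shorter genes of the list had medians of -0.08 against 0.04 in oligodendrocyte-like and -0.05 against 0.11 in microglia-like cells. They were at 0.04 against 0.05 in neuroblast-like and at -0.05 against 0.14 in endothelial-like cells.

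**Figure D3:**
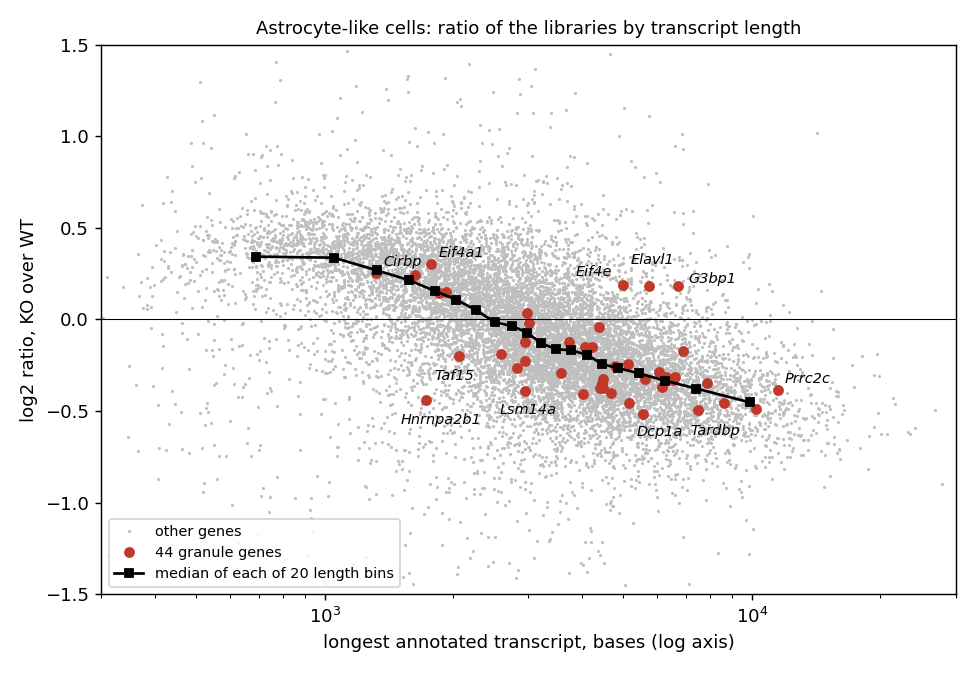
Log2 ratio of knockout over wild-type CPM in astrocyte-like cells (y axis) against the longest annotated transcript (x axis, bases, log scale). Grey points are other genes, red points the 44 genes, and the black line joins the medians of 20 length bins, from 0.34 in the shortest to -0.45 in the longest bin. Most red points lie near the line, G3bp1, Elavl1 and Eif4e lie above it and Hnrnpa2b1 below it. Genes outside the axes are not drawn.

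When the median of all genes of like length was subtracted from each ratio, the medians of the list moved to -0.0061 in astrocyte-like, -0.033 in oligodendrocyte-like, -0.0027 in microglia-like, 0.030 among neuroblast-like and -0.020 among endothelial-like cells. In astrocyte-like cells 3 of 44 genes were then lower by 0.3 or more (12.9% of all genes) and 3 higher (10.9%). In oligodendrocyte-like cells 1 was lower (10.1%) and 2 higher (11.3%), in microglia-like cells 6 lower (15% of all genes) and 3 higher (14.8%), in neuroblast-like cells 1 lower (13.4%) and 4 higher (10.3%), and in endothelial-like cells 7 lower (15.5%) and 5 higher (14.1%). Relative to genes of the same length, the medians of the list thus lay near 0. Tardbp, Nufip2, Prrc2c and Xrn1 came to -0.12, -0.16, 0.07 and -0.04 in astrocyte-like cells, and Tia1 and Caprin1 to -0.13 and -0.04. The genes under 4000 bases with ratios above 0 there moved as well. Eif4a1, Hnrnpk and Ybx1 came to 0.15, 0.11 and 0.026. Hnrnpa1, Ybx3 and Cirbp came to -0.0028, -0.0095 and -0.015.

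**Figure D4:**
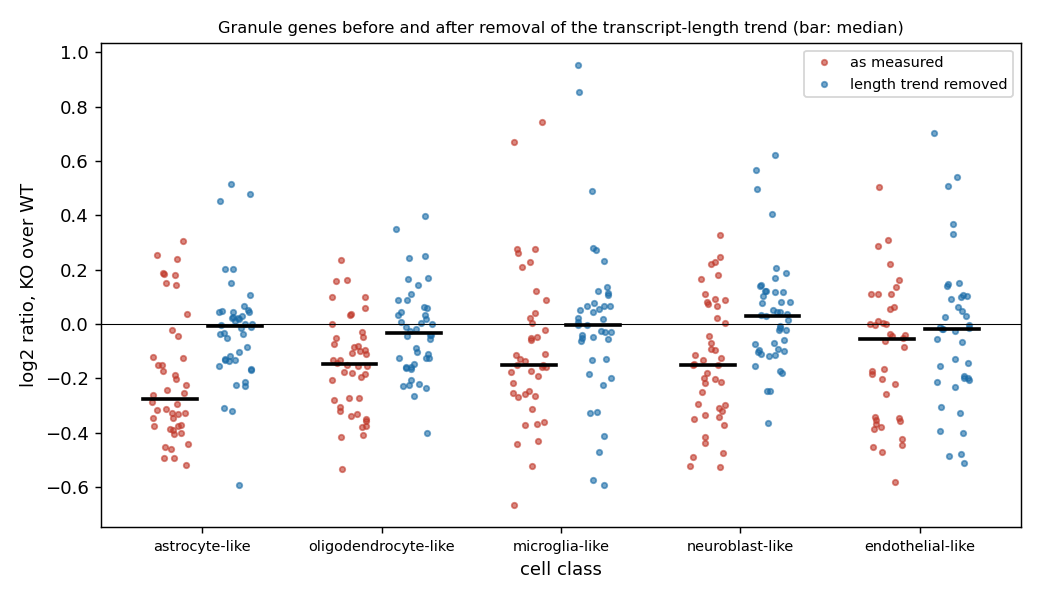
Log2 ratio of knockout over wild type (y axis) of the granule genes in 5 classes (x axis), as measured (red) and after subtraction of the median of genes of like length (blue). Each point is a gene and each bar a median, so the spread is over genes and not over replicates. The medians move from -0.27 to -0.0061 in astrocyte-like and from -0.15 to -0.0027 in microglia-like cells.

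A few genes, picked by these same values, stayed past 0.3 from the length trend in each of 4 classes (astrocyte-like, oligodendrocyte-like, microglia-like and neuroblast-like). The share of all genes that did so is not given here, so their number has no background. G3bp1, at chr11:55469685-55504838 on the plus strand (GRCm38) with 1 basic transcript of 6703 bases, was above genes of its length by 0.51, 0.40, 0.49 and 0.57. Hnrnpa2b1, at chr6:51460932-51469894 on the minus strand with a longest transcript of 1728 bases, was below by -0.59, -0.40, -0.59 and -0.36. Both also stayed past 0.3 in all 4 when the median length of a gene's transcripts replaced the longest. Eif4e was above by 0.45, 0.35, 0.85 and 0.62 for its longest transcript of 4991 bases, but its 4 basic transcripts have a median of 792.5 bases, and with that length its values were -0.12, -0.0070, 0.41 and 0.11. Elavl1 was above by 0.48, 0.25, 0.95 and 0.50, so it was not past 0.3 in oligodendrocyte-like cells. Its exons overlap Ccl25 on the other strand. The sources used here do not say whether counting used strand. The exons of G3bp1 overlap the microRNA gene Mir7652 on the same strand, and those of Hnrnpa2b1 overlap no other annotated gene. When a trend with GC content was removed in place of length, neither G3bp1 nor Hnrnpa2b1 stayed past 0.3 in all 4 classes. G3bp1 was then at 0.2999, 0.24, 0.33 and 0.28 and Hnrnpa2b1 at -0.24, -0.17, -0.32 and -0.10, while Eif4e was above and Xrn1 below by 0.3 or more in all 4.

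Other genes of stress granules, P-bodies, deadenylation and initiation were followed as a wider list of 104 genes. In astrocyte-like cells 102 were measured, of which 30 were lower by 0.3 or more and 17 higher, with a median of -0.13. In oligodendrocyte-like cells 23 of 97 were lower (23.7%) and 7 higher, and among microglia-like cells 16 of 83 were lower (19.3%) and 14 higher. The lower share in astrocyte-like cells was 29.4%, so the shares lie near those of all genes given above. Of 81 genes measured in all 3 classes, 9 (11.1%) were lower by 0.3 or more in each, where 6.97% of 4391 genes were. The 9 include the Argonaute proteins Ago1, Ago2 and Ago3 that carry microRNAs, the deadenylases Cnot6 and Cnot7 and the polyadenylation element binding protein Cpeb4. The others were the glial splicing regulator Qk and the helicases Dhx9 and Ddx17. Cpeb4 stood at 625 CPM in wild type and 374 in knockout in astrocyte-like cells (-0.74, -0.77 to -0.71), and at -0.46 in oligodendrocyte-like and -0.53 in microglia-like cells. Ddx17 stood at 381 and 231 CPM in astrocyte-like cells (-0.73), and after removal of the length trend it was at -0.46 there, at -0.40 in oligodendrocyte-like and at -0.27 in microglia-like cells. Cnot7 was at -0.58, -0.52 and -0.92 as measured, and at -0.51, -0.47 and -0.92 relative to genes of its length. Higher by 0.3 or more in all 3 were 2 of the 81, against 90 of 4391 over all genes. These were Lsm2, of the ring that activates decapping (0.34, 0.52 and 0.90), and the initiation factor subunit Eif3e (0.39, 0.45 and 0.44). The 3 with most UMIs in astrocyte-like cells were Qk (2112 against 1596 CPM, -0.40), Ddx5 (1179 against 1007 CPM, -0.23) and Msi2 (1004 against 749 CPM, -0.42).

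The start regions of the genes were searched for short motifs of stress and growth regulators, on both strands of RefSeq windows from 250 bases before to 50 after each annotated start (GRCm38.p6). A window was matched for 41 of the 44 genes, and a gene counts where any of its windows holds the motif. The E-box CACGTG, read by basic helix-loop-helix factors such as Myc and Tfeb, was found for 10 (24.4%): Atxn2, Eif3a, Eif4a1, Eif4e, Eif4g1, Fmr1, G3bp2, Prrc2c, Ubap2 and Ubap2l. It was found for 8.09% of 27025 genes with a window and for 11.8% of the 9623 of them measured in astrocyte-like cells. The Atf4-type element TGATGNAA was found for 1 of the 41, Hnrnpa2b1 (4.51% of genes with a window), the heat shock element for the same gene (0.662%), and the cAMP response element TGACGTCA for 0 (2.03%). A match is a description of the sequence and shows no binding. For 5 of the 10, chosen after their values were seen to cover the range of ratios, the 60 bases around the motif upstream of the start are shown 5′ to 3′ on the gene's strand, with the E-box in capitals.
Prrc2c, chr1:162740602-162740661, minus strand: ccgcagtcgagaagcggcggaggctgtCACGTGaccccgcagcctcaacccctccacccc
Eif4g1, chr16:20672646-20672705, plus strand: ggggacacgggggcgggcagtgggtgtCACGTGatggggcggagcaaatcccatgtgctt
Ubap2, chr4:41275136-41275195, minus strand: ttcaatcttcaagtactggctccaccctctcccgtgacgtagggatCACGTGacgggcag
Eif4e, chr3:138527177-138527236, plus strand: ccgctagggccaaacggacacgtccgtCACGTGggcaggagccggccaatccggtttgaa
Eif4a1, chr11:69672580-69672639, minus strand: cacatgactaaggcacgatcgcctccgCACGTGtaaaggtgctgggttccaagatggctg
In astrocyte-like cells the ratios of these 5 were -0.39 for Prrc2c, -0.33 for Eif4g1, -0.04 for Ubap2, 0.19 for Eif4e and 0.30 for Eif4a1. Over all 10 genes with the motif, 8 were below 0, with a median of -0.20, and of the 31 with a window and no match 24 were below 0, with a median of -0.29. This difference was not tested.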

How the data were processed

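Single-cell libraries of dissociated cortex (1 Fam69c wild-type, 1 knockout) were read from the deposited count tables, which give each gene's raw UMI count in each barcode, without normalization, per the file headers. The submitters' processing notes name Cell Ranger 4.0.0, Seurat 3.0, R 4.0.3 and mm10. The sources used here do not give the annotation release or the use of strand and introns. The lowest deposited barcode had 500 UMIs in wild type and 501 in knockout.

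A cell was kept with 500 or more genes and a mitochondrial share of 20% or less, which removed 1998 wild-type and 1702 knockout barcodes. Each cell was scored on the markers of 19 cell types (UMIs per 10000, log scale, relative to the 99th percentile of cells with the marker). A class needed a mean score of 0.3, a lead of 0.15 over the next type and 3 detected markers. The gate was set with the data in view. Left without a class were 1020 wild-type and 540 knockout cells, of which 777 and 249 carried markers of 2 classes; no doublet caller was run. Of the astrocyte-like cells 105 of 2316 and 46 of 4405 had a lead under 0.2, of the microglia-like cells 11 of 257 and 11 of 310. No class had a marker of another type among its 10 leading genes, and the highest median score of another list in a class was 0.130 (erythroid, wild-type endothelial-like cells), against 0.687 for its own.

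For each class, a library's UMIs were added up over cells and given as CPM of that sum. Ratios carry exact conditional binomial 95% intervals, and genes needed 100 UMIs over both libraries. A gene was called past log2 0.3. No test was made with 1 library per genotype. Transcript lengths and GC came from GENCODE M21 basic transcripts, matched for 99.6% of genes, and trends were subtracted as medians of 20 bins. TMM factors came from edgeR 4.0.16 in R 4.3.3, and the rest used matplotlib 3.10.9, pandas 2.3.3, scipy 1.17.1 and numpy 2.4.6 in Python 3.11.15. The ratio step was tested on simulated counts with known changes. The rule for named genes gave values to members past log2 0.3 in a class of at least 200 cells per library, to those tied to 1 class and to 7 core members whatever they showed. The members, roles and lists were chosen with earlier results of these data known. Neuroblast-like and endothelial-like classes and 3 alternatives were added after seeing the data.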

Additional observations from a re-analysis of the deposited data

How the results depend on the processing

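The median log2 ratio of the granule genes in astrocyte-like cells was -0.27 and moved to -0.19 with TMM factors, -0.18 with median-of-ratios factors, -0.0061 with the transcript-length trend removed, -0.095 with the gene-span trend removed, -0.14 with the GC trend removed and -0.026 with the trend of the median transcript length removed. The number lower by 0.3 or more, 20 of 44, became 9, 8, 3, 4, 8 and 2 in the same order. The share over all genes fell as well, from 27.8% to 19.6% with TMM factors, 19.3% with median-of-ratios factors and 12.9% with the transcript-length trend removed. In oligodendrocyte-like cells the number of granule genes lower, 11, became 6 with either set of factors, 1 with the length trend removed, 6 with the span trend, 7 with 10 CPM added on both sides, 4 with the GC trend and 3 with the median-length trend. Over all genes the share there fell from 19.5% to 15.1% with either set of factors and 10.1% with the length trend removed. Shares over all genes are not given for the other settings, nor for the changes of sign below. In microglia-like cells the median of -0.15 turned to 0.012 in cells thinned to 2000 UMIs, which left 21 genes above the minimum and left out 63 wild-type and 86 knockout cells, and to 0.033 with the median-length trend. Its count of 8 became 4 thinned, 5 with the GC trend and 5 with the median-length trend. In neuroblast-like cells the median turned to 0.030 with the length trend and 0.015 with the median-length trend. With the length trend removed, 17 of the 44 genes changed sign in astrocyte-like cells and 16 in neuroblast-like cells. Of those past 0.3 before, these were Pum2 (0.021), Larp1 (0.019), Larp4 (0.0019), Prrc2c (0.067) and Celf1 (0.030) in astrocyte-like cells, and Prrc2c (0.10) and Celf1 (0.044) in neuroblast-like cells. With the median-length trend, 14 and 13 genes changed sign in these classes, and of those past 0.3 before these were Eif4g1 (0.014), Pum2 (0.028), Larp1 (0.045), Prrc2c (0.062) and Celf1 (0.10) in astrocyte-like cells, and Prrc2c (0.091) and Celf1 (0.11) in neuroblast-like cells. Tardbp was at 0.012 in thinned microglia-like cells, and Eif4e at -0.083 in neuroblast-like cells of 5000 to 15000 UMIs. The cause of these moves was not tested, since the subtraction of trends and the thinning only process the same libraries in another way. The alternatives with 5000 to 15000 UMIs, GC and median transcript length were chosen after seeing the data. No paired analysis was possible because each genotype has 1 library. For the same reason no replicate could be left out, and depth limits the microglia-like and endothelial-like ratios most, where counting intervals are widest.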
